A study of Mus musculus with 6 samples.

Results

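Promoters of long noncoding RNA genes that carried H3K27me3 in mouse ovarian granulosa cells (GCs) were examined, together with their peaks after cyclophosphamide (CTX). Peaks of the 6 libraries were merged into 12430 regions, of which 4627 were called in at least 2 libraries. A region was kept when it was called in at least 2 libraries, reached within 2 kb of the transcription start site (TSS) of a lincRNA or antisense transcript in the GENCODE M21 annotation of mm10 (GRCm38), and lay more than 2 kb from every protein-coding TSS. This rule kept 172 regions at the promoters of 145 noncoding genes, 101 of them lincRNA genes (transcribed between coding genes) and 44 antisense genes. The rule removed 300 further regions that lay near a noncoding TSS and also within 2 kb of a coding TSS. Another 174 regions met both distance criteria but were called in 1 library only. At the edge of the distance criterion, the regions of Gm12116 (2004 bp from Tlx3), Otx2os1 (2020 bp from Otx2) and Gm43851 (2054 bp from Nkx1-1) were kept, and those of 2210039B01Rik (1992 bp from Tmem30b) and Gm26793 (1902 bp from Fgf15) were left out.

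The cells came from 3-week-old ICR females primed with pregnant mare's serum gonadotropin (PMSG), which starts follicle growth. The CTX-treated mice then received a single intraperitoneal injection of CTX, an alkylating agent, the control mice received PBS, and the GCs were harvested 6 h later. Each group had 3 anti-H3K27me3 CUT&Tag libraries, the GCs of 3 mice being pooled in a sample, so differences between the mice within a pool are not visible. All groups shared the strain, age and PMSG priming. The recovered depth was 1118 to 1957 reads per Mb of genome, and the libraries held 2916 to 6378 merged peaks. Because H3K27me3 marks silent genes, promoters of cell type markers were looked up: no library had a peak within 2 kb of a TSS of any of the 10 granulosa genes (Foxl2, Fshr, Cyp19a1, Inha, Inhba, Nr5a2, Esr2, Amh, Hsd17b1 and Gja1). Among 4 theca genes, Insl3 carried a peak in 5 libraries, and none of 4 oocyte genes had one. Of the leukocyte and endothelial genes, Ptprc and Kdr had a peak in 1 library each. Most markers of the other cell types had no peak either, so these lists do not tell granulosa cells from other cells, and the label was not tested by them.

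H3K27me3 is deposited by Polycomb repressive complex 2 (PRC2) and is typical of silent genes that direct embryonic patterning, such as the Hox genes and other transcription factor genes. Many long noncoding RNA genes lie beside these developmental genes and are often transcribed in the same tissues, and some serve as host transcripts from which microRNAs are cut. A peak at a noncoding promoter can therefore belong to a Polycomb domain that also covers a coding neighbour, and the peak lists do not separate the noncoding promoter from the rest of such a domain.

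Sequence at the summit is shown for 6 regions that the results below return to. Each run is the 300 bp window on the plus strand of GRCm38 around the strongest summit, with every CG dinucleotide in capitals. Gm15050 and Gm13344 ranked highest among the members outside ribosomal or repeat sequence, and Mir670hg and 3110039M20Rik passed the test between the groups. Gm26709 and D130079A08Rik were called in all PBS and no CTX libraries.
Gm15050 (chr6:52170653-52170952): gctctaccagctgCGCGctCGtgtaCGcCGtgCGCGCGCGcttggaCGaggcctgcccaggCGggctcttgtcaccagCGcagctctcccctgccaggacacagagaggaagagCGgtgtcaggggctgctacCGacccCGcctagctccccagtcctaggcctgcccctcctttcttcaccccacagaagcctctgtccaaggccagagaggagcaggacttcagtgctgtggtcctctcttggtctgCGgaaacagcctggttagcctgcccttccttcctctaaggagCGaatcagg
Gm13344 (chr2:19431157-19431456): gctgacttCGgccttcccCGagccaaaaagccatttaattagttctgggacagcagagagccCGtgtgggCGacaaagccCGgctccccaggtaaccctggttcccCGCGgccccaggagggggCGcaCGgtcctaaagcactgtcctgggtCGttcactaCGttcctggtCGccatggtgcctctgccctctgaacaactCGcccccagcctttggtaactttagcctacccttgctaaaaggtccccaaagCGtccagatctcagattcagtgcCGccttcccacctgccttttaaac
Mir670hg (chr2:94242913-94243212): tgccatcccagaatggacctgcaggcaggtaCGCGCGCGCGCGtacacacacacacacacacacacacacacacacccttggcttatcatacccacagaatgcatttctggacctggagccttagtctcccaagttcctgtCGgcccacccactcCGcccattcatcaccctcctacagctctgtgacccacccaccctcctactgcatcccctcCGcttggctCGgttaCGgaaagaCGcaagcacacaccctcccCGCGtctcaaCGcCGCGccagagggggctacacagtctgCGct
3110039M20Rik (chr12:49391492-49391791): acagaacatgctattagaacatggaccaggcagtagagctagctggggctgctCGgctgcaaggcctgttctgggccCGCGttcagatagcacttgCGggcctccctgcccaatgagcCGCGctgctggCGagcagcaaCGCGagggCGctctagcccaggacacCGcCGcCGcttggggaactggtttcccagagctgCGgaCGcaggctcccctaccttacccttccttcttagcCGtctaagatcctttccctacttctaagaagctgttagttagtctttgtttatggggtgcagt
D130079A08Rik (chr14:104460738-104461037): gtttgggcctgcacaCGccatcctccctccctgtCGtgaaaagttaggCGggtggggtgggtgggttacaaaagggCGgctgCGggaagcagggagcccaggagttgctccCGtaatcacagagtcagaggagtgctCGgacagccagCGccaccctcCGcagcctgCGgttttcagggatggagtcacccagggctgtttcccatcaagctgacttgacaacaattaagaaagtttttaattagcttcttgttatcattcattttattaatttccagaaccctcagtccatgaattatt
Gm26709 (chr12:72947055-72947354): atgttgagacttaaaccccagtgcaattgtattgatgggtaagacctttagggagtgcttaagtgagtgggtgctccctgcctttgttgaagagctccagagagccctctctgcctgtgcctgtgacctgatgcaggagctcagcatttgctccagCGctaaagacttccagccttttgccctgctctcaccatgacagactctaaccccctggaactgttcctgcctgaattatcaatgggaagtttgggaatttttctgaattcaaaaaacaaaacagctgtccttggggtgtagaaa

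The window of Gm15050 held 17 CG dinucleotides, those of Mir670hg, 3110039M20Rik and Gm13344 held 18, 16 and 15, that of D130079A08Rik held 10, and that of Gm26709 held 1. Over all 172 members the median was 7 CG per window (range 0 to 31), beside a median of 10 in 2596 windows at coding promoter regions called in at least 2 libraries. The ratio of observed to expected CpG over the whole region had a median of 0.351 in members and 0.466 in the 2603 coding promoter regions. It was at least 0.6 in 27 members (15.7%) and in 28.8% of the coding class. The median GC content was 54.7% in members and 57.1% in coding promoter regions. Members were thus poorer in CpG than coding promoters, as a description of both classes. Over all regions called in at least 2 libraries the medians were 7 CG per window and a ratio of 0.38, near those of members. GAGAGAGA, a simple repeat of the kind bound by GAGA-type factors, was searched on both strands (as TCTCTCTC on the other) and stood in 13 member windows (7.56%) and in 5.05% of the coding windows. TTCAGCACC, the left part of the RE1 element bound by the repressor REST (GGTGCTGAA on the other strand), stood in the window of 1 member, 2610016A17Rik, and in 0.77% of the coding windows. Over all regions called in at least 2 libraries the shares of windows with GAGAGAGA and TTCAGCACC were 5.94% and 0.631%.

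Most noncoding promoters with H3K27me3 lay more than 50 kb from a gene of the developmental families listed here, and a minority lay close to one. Distances were taken to the TSSs of 392 coding genes from families of developmental transcription factors (among them Hox, Nkx, Pax, Sox, T-box, forkhead, GATA, POU, Dlx and basic helix-loop-helix genes). Of the 172 members, 33 (19.2%) lay within 10 kb of such a TSS and 45 (26.2%) within 50 kb. Their median distance was 415 kb. The families did not include Dmrta2, Dmrt2 or Shh. Dmrta2os (2562 bp from Dmrta2), 2610016A17Rik (2069 bp from Dmrt2) and 9530036O11Rik (7998 bp from Shh) therefore counted as more than 50 kb away. For a comparison by gene, noncoding genes over 2 kb from every coding TSS were taken. Of the 131 such genes with a member region, 14.5% lay within 10 kb and 23.7% within 50 kb, at a median of 439 kb. Of the 6934 without one, 0.678% lay within 10 kb and 2.13% within 50 kb, at a median of 2757 kb. Read in the other direction, 19 of 66 noncoding genes within 10 kb of a developmental TSS (28.8%) had a member region, and the share was 10.6% at 10 to 50 kb (12 of 113), 7.2% at 50 to 100 kb (9 of 125), 3.44% at 100 to 500 kb (27 of 784) and 1.07% beyond 500 kb (64 of 5977). The share fell at each step of distance. No test was run on this gradient, since neighbouring genes share domains and are not independent. Among all 4627 regions called in at least 2 libraries, 15.6% lay within 10 kb and 19.7% within 50 kb, and among coding promoter regions, for which distance 0 is possible, 14.7% and 16%. The members called in all 6 libraries had 12.8% within 10 kb and 20.5% within 50 kb.

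**Figure D1:**
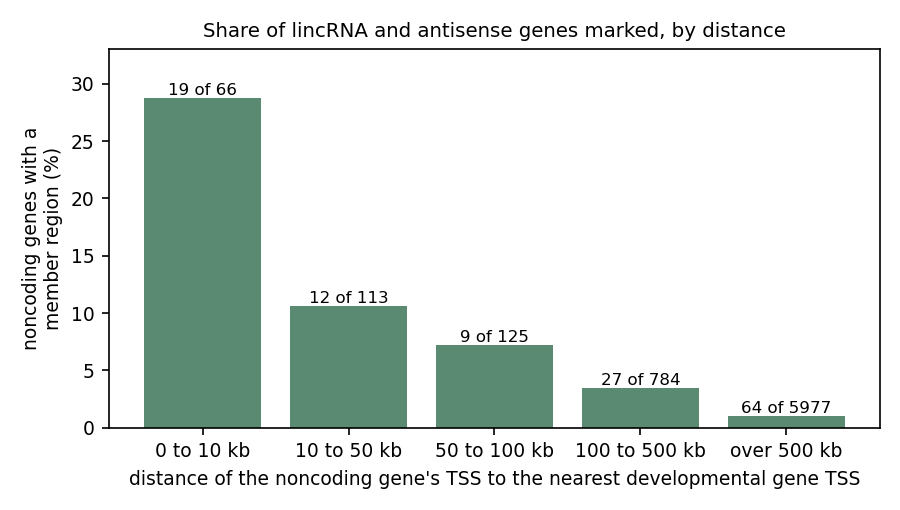
Share of lincRNA and antisense genes more than 2 kb from every coding TSS that had a member region (y axis, percent), by the distance of the gene's TSS to the nearest TSS of a developmental gene (x axis), with the number of genes over each bar. The share was 28.8% within 10 kb and 1.07% beyond 500 kb.

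The 45 members within 50 kb had 38 different developmental genes as neighbours, and in 39 of the 45 that gene was also the nearest coding gene. The homeobox genes outside the Hox, Nkx, Dlx, POU and Pax families contributed 11 members (beside Hmx1, Onecut1, Onecut2, Otx2, Pdx1, Pitx1, Tlx1, Tlx3 and Vax2), the AP-2 and COUP genes Tfap2a, Nr2f1 and Nr2f2 contributed 6, and Nkx genes 5. Forkhead genes, among them Foxc1, Foxf2 and Foxq1, had 4 members beside them, and so had the T-box genes Eomes, T and Tbx3. Of the 38 neighbours, 30 (78.9%) had a peak of their own within 2 kb of a TSS in at least 2 libraries. Of all 392 developmental genes 228 had one (58.2%). The 38 were chosen by a called region within 50 kb, which can belong to the same domain. The comparison therefore cannot show that these neighbours were marked more often. For 5 neighbours no library had a promoter peak. Hoxa2, Hoxa5, Hoxb9, Vax2 and Foxf2 were in this position. There a region lay within 2 kb of the noncoding TSS and none within 2 kb of the developmental TSS. Only the region of Gm53 (beside Hoxb9) held its noncoding TSS, while those of Gm15050, Hoxaas3, Vax2os and Gm11378 did not. The Vax2os region lay 2524 bp from Vax2, so the contrast rests on the 2 kb limit and does not place the mark at either promoter.

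Near the Hox clusters 4 members were found. Gm15050, an antisense gene in the Hoxa cluster, had its region at chr6:52169998-52171973, inside the gene body of Hoxa3 and 5167 bp from the nearest Hoxa2 TSS. It ranked behind only the 2 regions of repeated sequence described below, with a mean rank percentile of 96.7 by q-value. It was called in all 6 libraries, over 1173, 1161 and 1374 bases in PBS and 1358, 1665 and 617 bases in CTX. Its bases overlapped between the groups. Hoxaas3 (chr6:52199999-52200241), another antisense gene of the cluster, was called in PBS replicates 1 and 3 only, over 235 and 243 bases. Halr1 (chr6:52104247-52104538), a lincRNA gene outside the Hoxa cluster, was called in PBS replicate 1 and CTX replicate 2. Gm53 (chr11:96251262-96252290), a lincRNA gene 19167 bp from Hoxb9, was called in 2 libraries of each group. Hoxaas3 had pileups of 33.7 and 32 reads and Halr1 of 8.69 and 7.98 reads (at a depth of 1000 reads per Mb), so these small regions differed in height.

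A list of mainly long noncoding RNA genes, drawn up with earlier results of these data known, put these loci in context. It also held the microRNA genes Mir10b and Mir196b at the Hox clusters. Of 15 annotated genes at the Hox clusters, 9 had a promoter peak in at least 2 libraries, and 3 of them were members (Hoxaas3, Halr1 and Gm53), the others lying within 2 kb of a coding TSS or having another gene type. Of 22 annotated genes beside developmental transcription factor genes, 11 had a promoter peak in at least 2 libraries and 5 were members. The 22 and the 11 include Tunar, which is annotated as protein-coding. Of 13 imprinted or X inactivation genes 3 had one, and 2 were members. None of the 12 broadly expressed genes, such as Malat1, Neat1 and Gas5, had a promoter peak in any library.

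**Figure D2:**
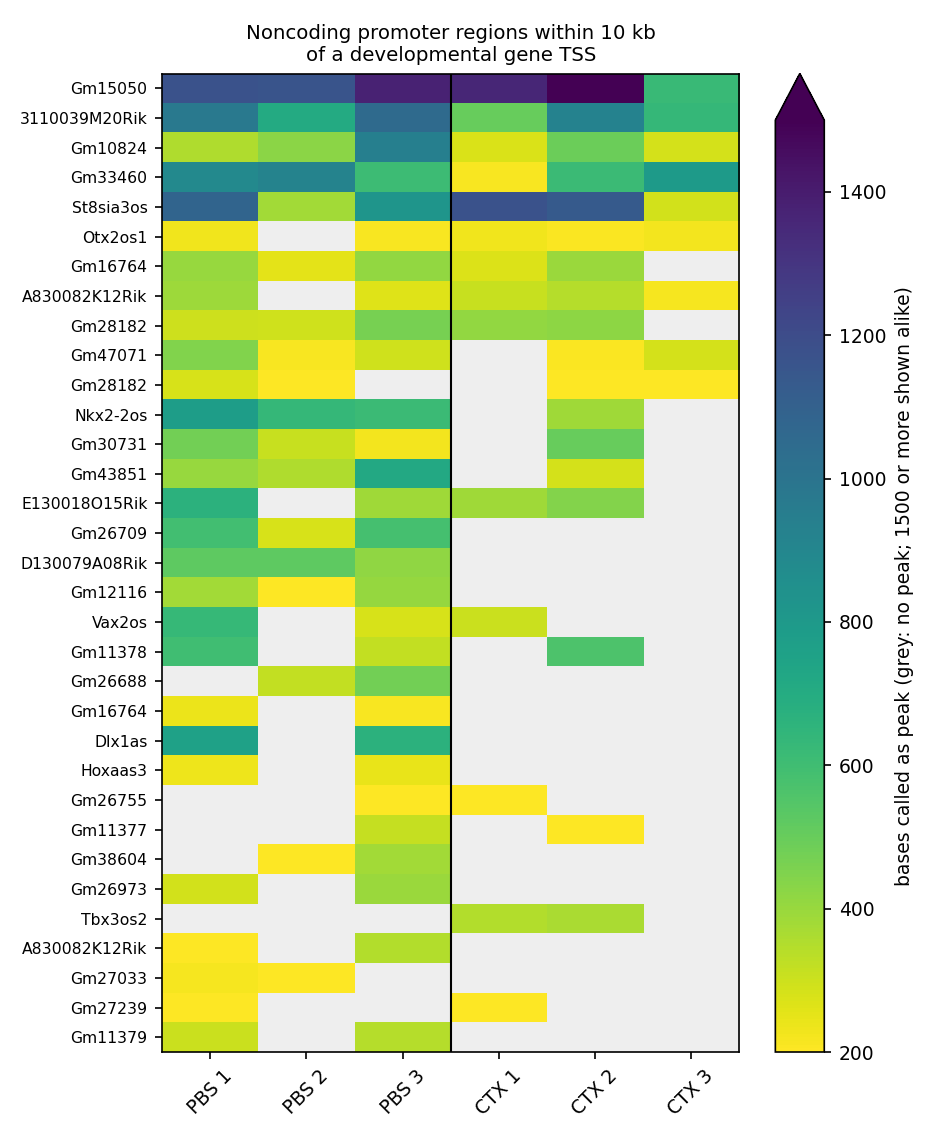
Bases called as peak in each library (colour, from 200 to 1500 or more; grey where no peak was called) at the 33 noncoding promoter regions within 10 kb of a developmental gene TSS, each row named by its noncoding gene; PBS libraries stand left of the line and CTX libraries right. The top 5 rows were called in all 6 libraries, and the rows of Gm26709, D130079A08Rik and Gm12116 were coloured in the 3 PBS libraries only.

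Of the 33 members within 10 kb of a developmental TSS, 5 were called in all 6 libraries. Gm10824 lay 5758 bp from Tcf21, a basic helix-loop-helix factor of mesenchyme, and Gm33460 lay 7242 bp from Eomes, a T-box factor of mesoderm and trophoblast. St8sia3os lay 6711 bp from the homeobox gene Onecut2. Gm15050, described above, was among the 5 as well. In this set 20 members (60.6%) were called in more PBS than CTX libraries, beside 47.5% of the members farther away (66 of 139) and 49.9% of the 4627 regions called in at least 2 libraries, a difference that was not tested. Regions of Otx2os1, A830082K12Rik and Tbx3os2 were called in more CTX than PBS libraries, 3 of 33 beside 7.13% of the 4627 regions, and the rest in as many of each. A second region of A830082K12Rik (chr13:78203183-78203533) was called in 2 PBS and no CTX libraries.

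Otx2os1 (chr14:48671556-48671799) shares its locus with Otx2, a homeobox gene of the anterior brain and eye. Its region was called in all CTX libraries and in PBS replicates 1 and 3, over 210 to 229 bases, and ranked at a mean percentile of 92.8. Counting every peak within 2 kb of its TSSs, Otx2os1 had one in all 6 libraries. Nkx2-2os (chr2:147181617-147182392) was called over 776, 635 and 614 bases in PBS and over 383 bases in CTX replicate 2 only, so that its bases did not overlap between the groups. Nkx2-2, beside it, directs ventral neural tube and pancreatic islet cells, and had a peak within 2 kb of its own TSSs in 5 libraries. Vax2os, beside the eye homeobox gene Vax2, was called over 629 and 281 bases in PBS replicates 1 and 3 and 303 bases in CTX replicate 1. Dlx1as runs antisense in the Dlx1 and Dlx2 cluster of forebrain homeobox genes, and peaks lay within 2 kb of its TSSs in all 6 libraries. Its 1 member region (chr2:71539497-71540318) was called over 756 and 664 bases in PBS replicates 1 and 3. Tbx3os2, beside the T-box gene Tbx3, went the other way, with 348 and 365 bases in CTX replicates 1 and 2 and no PBS peak. It was the sole member called in CTX libraries only (0.581%, beside 1.97% of the 4627 regions), and the pattern rests on 2 libraries.

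Among the imprinted and X inactivation genes, Tsix and H19 were members. Tsix is the antisense transcript that opposes Xist on the active X chromosome. Its region (chrX:103447468-103448399) held the TSS and was called over 296, 339 and 773 bases in PBS and 200 and 623 bases in CTX replicates 1 and 2, with no peak in CTX replicate 3. The promoter of Xist, which silences the other X chromosome, had no peak in any library. H19, an imprinted growth-restraining RNA expressed from the maternal allele, was called upstream of its TSS (chr7:142578369-142579096) over 728 and 200 bases in PBS replicates 1 and 2 and in no CTX library. The lists do not separate alleles, and whether the H19 peak lay on the silent one could not be told.

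Several members were host genes of microRNAs, a grouping chosen after the values were seen. A microRNA hairpin lay in the same-strand body of a member's gene, or within 5 kb of its region, for 21 members and 19 microRNA genes, using the 1005 hairpins of the RefSeq table for GRCm38. For 10 of these microRNA genes the hairpin lay in the gene body itself. All 3 miR-9 genes were reached: Mir9-1 in Gm3764, Mir9-2 in C130071C03Rik and Mir9-3 in Mir9-3hg. Mir129-1 lay in Gm3294, and Mir129-2 in Mir670hg. The mature forms are shown with the seed (bases 2 to 8), which pairs with targets, in capitals. The first pair comes from the miR-9 hairpins, the next from the Mir129-1 and Mir129-2 hairpins, and then follow microRNAs of Mir137, Mir96 and Mir183 beside member regions and of Mir155 in Mir155hg.
mmu-miR-9-5p: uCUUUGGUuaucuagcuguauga
mmu-miR-9-3p: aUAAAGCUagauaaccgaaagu
mmu-miR-129-5p: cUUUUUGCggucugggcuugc
mmu-miR-129-2-3p: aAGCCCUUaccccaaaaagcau
mmu-miR-137-3p: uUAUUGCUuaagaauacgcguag
mmu-miR-96-5p: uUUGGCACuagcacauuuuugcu
mmu-miR-183-5p: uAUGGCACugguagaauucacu
mmu-miR-155-5p: uUAAUGCUaauugugauaggggu

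No seed was shared between the families shown, although miR-96-5p and miR-183-5p come from 1 cluster, and miR-9, miR-124 and miR-137 are known as neuronal microRNAs while miR-155 is known from immune cells. The miR-9 hosts were called in 1 to 3 PBS libraries and 0 to 2 CTX libraries per region. The main region of Mir9-3hg (chr7:79514007-79514943) was called over 540, 359 and 881 bases in PBS and 334 and 565 bases in CTX replicates 1 and 2. Gm3764, whose region covers the Mir9-1 hairpin itself, was called over 671 and 1034 bases in PBS replicates 1 and 3 and 247 bases in CTX replicate 2. C130071C03Rik had 3 member regions, of which the one farthest upstream was called in 5 libraries over 200 to 376 bases. Rncr4, a retinal noncoding RNA beside Mir183 and Mir96, had a region called over 929, 563 and 976 bases in PBS and 902 bases in CTX replicate 2 only. Both Mir155hg regions lay downstream of the TSS; the larger was called in 2 libraries of each group. The miR-124 host genes Mir124-2hg and Mir124a-1hg were members too, called in 6 and 4 libraries, and are not counted among the 21. Of the 21 members with a microRNA, 12 (57.1%) were called in more PBS than CTX libraries and 1 (4.76%) in more CTX libraries, beside 49.9% and 7.13% of the 4627 regions.

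The 12 members with the highest mean rank among those called in all 6 libraries were led by regions of repeated sequence. Gm33838 (chr9:35305141-35305679, mean percentile 99.9) was soft-masked over 77.6% of its bases, with a summit pileup of 85.3 to 180 reads at a depth of 1000 reads per Mb in the 5 libraries where it could be solved. The region of AY036118, Gm26917 and Gm42418 (chr17:39843850-39848494) is ribosomal RNA sequence, whose many copies in the genome are represented there once, so its pileup of 257 to 465 reads sums over copies. Its unmasked sequence (4.35% masked) kept it out of the 6 members counted as repeat-rich. A further member in Gm26917 (chr17:39843243-39843692) was called in PBS replicate 1 and CTX replicate 2 only. Its pileups of 148 and 153 reads came with fold enrichments of just 1.43 and 1.46. The values of all these regions are uncertain as measures of the mark at a single locus.

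Behind the regions of Gm33838 and AY036118 stood Gm15050 and Gm13344 (chr2:19430812-19432646). Gm13344 lies 13017 bp from Ptf1a, a pancreas and cerebellum factor. Gm13344 was called over 1691, 887 and 1504 bases in PBS and 629, 862 and 530 bases in CTX, without overlap between the groups (exact permutation p = 0.1, two-sided, the smallest that 3 against 3 libraries allow). Its summit pileup nevertheless was 31.7, 32.7 and 33.2 reads in PBS and 30, 32.5 and 32.2 in CTX, and these ranges overlapped. 9530059O14Rik, Gm34785 (89972 bp from Dio3, which inactivates thyroid hormone), 4930478K11Rik (in the gene body of Hhipl1), Gm14342 with Gm27032, 4930432H08Rik with Gm42916 (89104 bp from Barhl2), CR974462.6, Gm17575 and Gm45441 (in Grin2d) completed the list. Gm34785 had pileups of 46.5, 42.9 and 57.7 reads in PBS and 34.2, 38.7 and 34 in CTX, which did not overlap, and those of 9530059O14Rik (40.7 to 43.3 in PBS, 28.6 to 39.4 in CTX) did not overlap either. Of the 12, only Gm15050 and Gm13344 lay within 50 kb of a developmental gene, and the members called in all 6 libraries had such a neighbour in 20.5% of cases, beside 28.8% of those called in 2 libraries.

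A run of 4 members stood within 47.6 kb on chromosome 3 (Platr30, Gm26553, Gm26689 and Gm17575). Platr30 and Gm17575 were called in all 6 libraries, with regions of 2568 and 2130 bp and pileups of 25.9 to 51.4 and 30.7 to 42.6 reads. Gm26689, called in all 6 as well, had pileups of only 2.79 to 7.53 reads, and Gm26553 was repeat-rich (54.4% soft-masked).

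**Figure D3:**
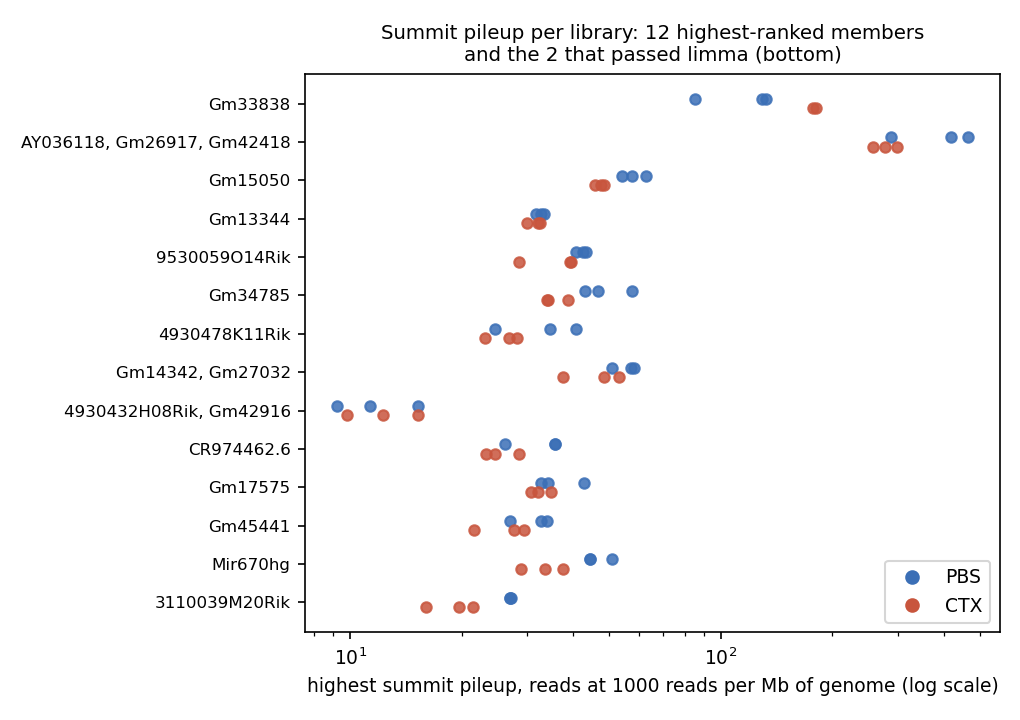
Highest summit pileup of each library (x axis, log scale, reads at 1000 reads per Mb) for the 12 highest-ranked members and, at the bottom, Mir670hg and 3110039M20Rik; blue points are PBS and red points CTX libraries. The red points lie to the left of all blue points in Gm15050, 9530059O14Rik, Gm34785, Mir670hg and 3110039M20Rik; the CTX replicate 3 point of Gm33838 is missing because its pileup could not be solved.

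Members were narrower than coding promoter regions and called less often. The median width was 553 bp (range 210 to 4645) against 669 bp. In all 6 libraries 22.7% of members were called, against 28.4% of the coding class. Over all regions called in at least 2 libraries these values were 568 bp and 24.4%, near those of members. The median number of bases called per region was lower in members than in coding promoters in 6 of 6 libraries. The share of members called was below the share of coding promoters called in 6 of 6 libraries too, as in PBS replicate 2 (55.8% and 67.8%) and CTX replicate 3 (30.2% and 39%). The median summit pileup of the regions called, in unscaled reads, was in no library lower in members, with 34 to 40.5 reads against 28 to 36 in PBS and 25 to 31 against 22 to 29 in CTX. By fold enrichment over the local background, however, the members' median was below that of coding promoters in 4 of 6 libraries (3.25 and 3.43 in PBS replicate 1), and by rank percentile of the q-value it was below in 2 of 6, so the measures of height gave no common order.

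A total of 221 lincRNA and antisense transcripts started in the windows of members, of which 203 (91.9%) had at least 2 exons, with a median spliced length of 1050 bases (range 119 to 14112). Over all lincRNA and antisense transcripts the corresponding values were 93.7% and 783 bases. The TSS itself lay inside the region in 44 members (25.6%), and the summit stood within 500 bp of the nearest TSS in 51 (29.7%), at a median distance of 922 bp. The summit was downstream of that TSS in 93 of 172. Most members had 1 transcript in the window. The most, 9, started at 2 regions shared by 2600014E21Rik and Gm13652, 374 and 375 kb from Hoxd1. H19 had 7 and Miat, a brain and retina lincRNA, had 6. There were 33 genes with at least 2 member regions, and 39 members lay inside a coding gene body. At 49 members the noncoding gene and the nearest coding gene lay on opposite strands and pointed apart. No limit was set on their distance (Gm34785 lay 89972 bp from Dio3), so this is not a count of shared promoters.

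To compare the groups, the members called in each library were counted. In PBS replicates 1, 2 and 3, 150, 96 and 137 members were called, and in CTX replicates 1, 2 and 3, 79, 117 and 52. The means were 128 ± 28.2 and 82.7 ± 32.7 (SD, n = 3 each). CTX replicate 2 exceeded PBS replicate 2, so the groups overlapped. Bases called summed to 93.6, 55.1 and 86.4 kb in PBS and 45.2, 68.8 and 28.1 kb in CTX, again with overlap. Depth moved with these counts: the deepest library (PBS replicate 1, 1957 reads per Mb) had the most members and the shallowest (CTX replicate 3, 1118 reads per Mb) had the fewest. Between libraries of near equal depth, PBS replicate 3 (1595) called 137 and CTX replicate 2 (1630) called 117, and PBS replicate 2 (1375) called 96 and CTX replicate 1 (1433) called 79. These are pairs of single libraries, and the part of depth in the difference was not tested. With each library held to its 2916 strongest peaks, 96 members remained under the rule, and 75, 72 and 76 were called in PBS and 57, 75 and 49 in CTX.

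**Figure D4:**
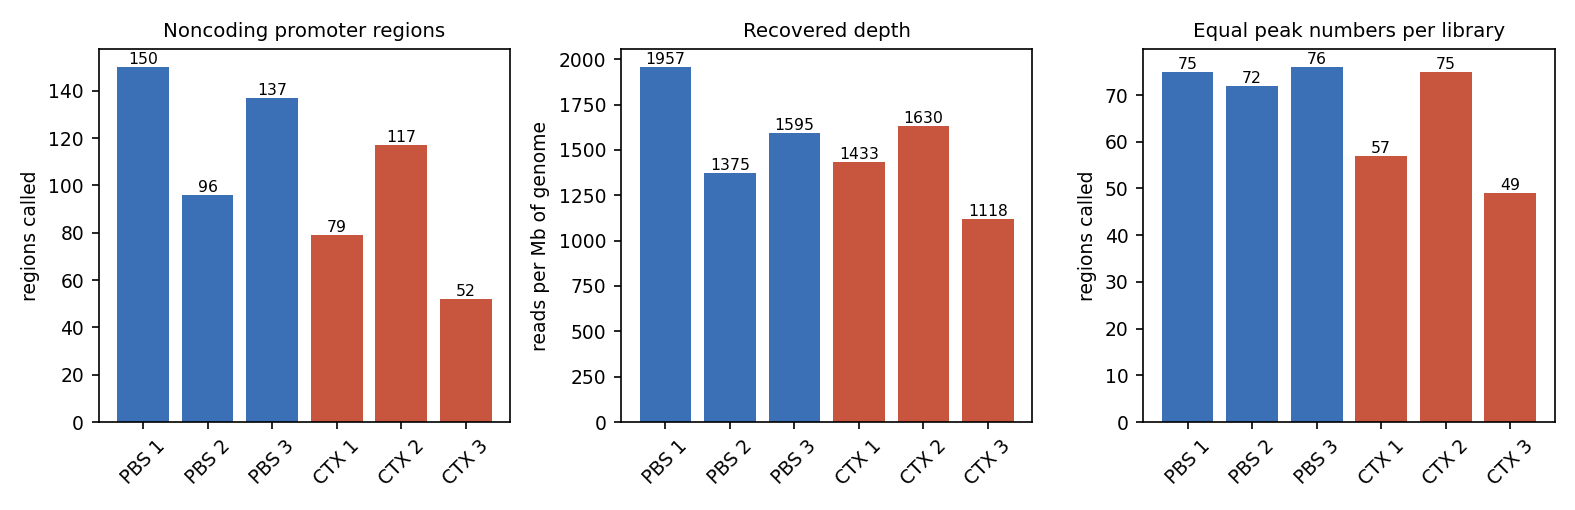
Members called per library (left, regions), recovered depth (middle, reads per Mb of genome) and members called when each library was held to its 2916 strongest peaks (right, regions), for the 3 PBS (blue) and 3 CTX (red) libraries. CTX 2 stands above PBS 2 in the left and right panels, and PBS 1 and CTX 3 are highest and lowest in both the left and the middle panel.

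Coding promoters were also called less often in CTX libraries. On average 74.2% ± 16.4 of the members were called in PBS and 48.1% ± 19 in CTX libraries, and 80.7% ± 11.3 and 54.8% ± 15.3 of the coding promoter regions (SD, n = 3 each). The members' share of each library's merged peaks was 2.63%, 2.73% and 2.78% in PBS and 2.45%, 2.74% and 2.16% in CTX, and the groups overlapped. Of the 172 members, 86 were called in more PBS than CTX libraries (50%, beside 49.9% of the 4627 regions), 8 in more CTX than PBS libraries (4.65%, beside 7.13%) and 78 in as many of each. These shares were near the background. Peaks in PBS libraries only were found at 40 members (23.3%), beside 19.4% of the 4627 regions.

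Called in all PBS and no CTX libraries were 10 members (5.81%), beside 4.41% of the 4627 regions called in at least 2 libraries, a share near this background. No member was called in all CTX and no PBS libraries, beside 0.238% of these regions. Gm26709 ranked highest of the 10 and lay 7155 bp from Six6, an eye and pituitary homeobox gene, with pileups of 38.3, 31.3 and 34.5 reads in the PBS libraries. D130079A08Rik, 4342 bp from the sensory neuron factor gene Pou4f1, had 522, 522 and 416 bases and 27.1, 24 and 22.6 reads. Gm12116, beside the homeobox gene Tlx3, had 381, 202 and 405 bases and 25, 25.5 and 36.4 reads. Six6 and Pou4f1 each had a peak within 2 kb of their own TSSs in 6 libraries, and Tlx3 in 5. A CTX peak thus remained at the neighbouring gene in each case. The other members of the 10 were Gm48530, Gm16702 (in the gene body of T2), Gm29543 (2491 bp from Sv2c), 2410004I01Rik, and regions of Nphs1os, Miat and 2600014E21Rik with Gm13652. For Nphs1os and Miat a neighbouring region of the same gene was called in all 6 libraries, and for 2600014E21Rik with Gm13652 and for Gm16702 another was called in CTX replicate 2, so these loci kept a CTX peak nearby. The PBS pileups of these last 7 members ran from 9.45 to 30.5 reads, and those of Gm16702 (9.45 to 10.7) and 2410004I01Rik (10.2 to 11.6) were among the lowest.

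By bases called, the groups did not overlap with CTX lower at 22 members (12.8%), beside 16.4% of all 4627 regions and 20% of coding promoter regions. They did not overlap with CTX higher at 1 member, the repeat-rich Gm33838 (532 to 537 bases in PBS and 538 to 539 in CTX), a share of 0.581% beside 0.67% of all regions. The 22 include the 10 members called in all PBS and no CTX libraries. The members' share stood below the background here, and for absence from CTX it was near the background (5.81% beside 4.41%). Neither difference was tested.

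Summit pileups could be compared where all libraries had a peak, at 37 members and 1124 regions in all; 2 further members (Gm33838 and Gm48662) were left out because 1 pileup could not be solved. The members' median log2 difference, CTX minus PBS, was -0.27, with 33 of 37 (89.2%) below 0. Over all 1124 regions the median was -0.26 and 82.9% were below 0, and over the 739 coding promoter regions -0.28 and 90.9%. Taken relative to the median of all regions, the members' median was -0.01, and 20 of 37 lay below 0. The lower scaled pileup of CTX libraries was thus a feature of most regions in the fit, members or not.

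**Figure D5:**
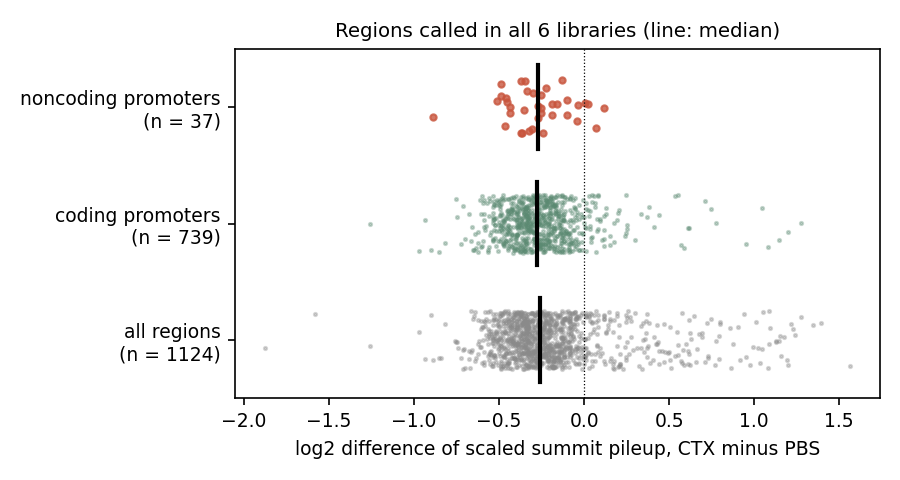
Log2 difference of the scaled summit pileup, CTX minus PBS (x axis), for regions called in all 6 libraries: all 1124, the 739 at coding promoters and the 37 members, each point a region and each line a median. The 3 medians lie between -0.28 and -0.26.

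The groups' pileups did not overlap, with CTX lower, at 17 of the 37 members (45.9%), beside 34.3% of all regions and 36.9% of coding promoter regions. None did so with CTX higher, beside 5.6% of all regions. In limma with Benjamini-Hochberg adjustment over the 1124 regions, 2 members passed with CTX lower (5.41%, beside 7.83% of all regions), and none passed with CTX higher, beside 4.18%. At an unadjusted p below 0.05 there were 11 members with CTX lower (29.7%, beside 29.8% of all regions) and none with CTX higher (beside 5.87%). Both calls were lost when the libraries were centred on the median of all regions, and under every other alternative of the fit.

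Mir670hg, the host gene of Mir670 and Mir129-2, was the member with the lowest adjusted p. At chr2:94242420-94243687 its pileup was 44.5, 44.4 and 50.8 reads in PBS and 33.5, 28.8 and 37.6 reads in CTX. All CTX values lay below all PBS values, and the log2 difference was -0.49 with a standard error of 0.15 (limma, adjusted p = 0.0443). After centring it was -0.24 (limma, adjusted p = 0.522). Its bases called (1109, 656 and 959 in PBS, 990, 1002 and 692 in CTX) overlapped. 3110039M20Rik (chr12:49390966-49392015) had pileups of 27.1, 26.9 and 27 reads in PBS and 16.1, 21.5 and 19.7 in CTX. The difference was -0.51 with a standard error of 0.16 (limma, adjusted p = 0.0466), and after centring -0.27 (limma, adjusted p = 0.5).

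Of the other members, Gm26689 differed most (-0.89, standard error 0.39; limma, adjusted p = 0.115) at the very low pileups given above, and Platr30 followed 3110039M20Rik (-0.49, standard error 0.16; limma, adjusted p = 0.054). At the other end stood Gm4278 (0.11, standard error 0.21; limma, adjusted p = 0.682), 4930432H08Rik with Gm42916 (0.07, standard error 0.24; limma, adjusted p = 0.834) and Carlr (0.02, standard error 0.19; limma, adjusted p = 0.929). Carlr had 1022, 918 and 758 bases in PBS and 442, 453 and 681 in CTX, which did not overlap, while its pileups of 14.4 to 16 and 13.5 to 17.9 reads did. Gm15050 had pileups of 54.2, 57.4 and 62.7 reads in PBS and 47.5, 48.5 and 45.6 in CTX, which did not overlap either, at a log2 difference of -0.30 with a standard error of 0.15 (limma, adjusted p = 0.148).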

How the data were processed

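H3K27me3 was profiled by CUT&Tag in 3 PBS and 3 CTX libraries of mouse GCs. According to the study's methods and the submitters' processing notes, the authors aligned reads with BWA to mm10, kept reads with a mapping quality of at least 13, removed duplicates, and called peaks in each library with MACS2 2.1.0 at a q-value of 0.05; use of a control library is not given in the sources used here. The deposited lists give a score, a fold enrichment (a ratio of pileup to local background) and, for each summit, its p-value and q-value as −log10.

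Overlapping peaks were merged within and then across libraries. The read pileup was solved from fold enrichment and −log10 p (99.8% to 99.9% of summits), and depth from the genome-wide background; pileups were scaled to 1000 reads per Mb. The highest log2 pileup per region was compared with limma 3.58.1 (R 4.3.3), eBayes with trend, over the 1124 regions called in all libraries and solved in each. Per the study, the libraries of a group are biological replicates, each from pooled mice. The limma and pileup steps were run on simulated data. The simulated limma differences were larger than any at the members, so differences of the members' size were not covered. Pileups carry counting error and no spike-in scale. H3K27me3 domains are broad, so narrow peaks can break a domain into several regions. Coordinates are 1-based on GRCm38; genes are GENCODE M21, and microRNAs are from the RefSeq table. A region counted as repeat-rich with at least 50% of bases soft-masked.

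The members, gene lists and tests were chosen with earlier results of these data known. Named were the 12 members called in all libraries with the highest mean rank by q-value. Every member called in all libraries of 1 group and none of the other was named too. Members on the list of mainly long noncoding RNA genes, the 3 largest limma differences in each direction, and the members with the most transcripts were also named. The microRNA hosts, the members near developmental genes, the chromosome 3 group and the sequences of both limma calls were added after values were seen. Alternatives covered thresholds, windows, TSS choice, joining of peaks, equal peak numbers, repeats, scaling, a replicate block and leaving out each library. Some neighbouring genes are not reported here.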

Additional observations from a re-analysis of the deposited data

How the results depend on the processing

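The difference of CTX minus PBS in members called per library (-45 regions) stayed negative under every alternative, from -62.2 to -29.7 when each library was left out in turn, and was -14 with equal peak numbers. The bases called differed by -31 kb, and by -42.6 to -21.4 kb without single libraries. The number of members, 172 in the report, was 77 with q-values up to 1e-05, 114 with a TSS window of 1000 bp, 113 with at least 3 libraries and 96 with equal peak numbers. The 10 members called in all PBS and no CTX libraries became 6 with a window of 1000 bp and when q-values were limited to 0.01, and 4 at 1e-05, with peaks within 1000 bp joined and with equal peak numbers; they ranged from 10 to 33 without single libraries, with 33 without PBS replicate 2 and 17 without CTX replicate 2. The reverse count ranged from 0 to 1, the 1 being Tbx3os2 without CTX replicate 3. The members' share of merged peaks differed by -0.26 percentage points, from -0.41 to -0.12 without single libraries, and turned to 0.51 with q-values up to 1e-05 and 0.0444 with at least 3 libraries; the cause was not tested.

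The median log2 pileup difference of -0.27 became -0.0256 with libraries centred on the median of all regions and ranged from -0.31 to -0.24 without single libraries. The 2 members that passed limma fell to 0 with centring, with the mean over summits (an alternative chosen after seeing the data), with the replicate block and without each library in turn (0 to 0). Over all regions limma called 135, 56 with centring, 57 with the mean over summits, 35 to 138 without single libraries (35 without CTX replicate 1, 52 without PBS replicate 3, 57 without CTX replicate 3) and 104 with the replicate block. With the block Mir670hg had an adjusted p of 0.0602 and 3110039M20Rik of 0.0633 (limma), within ranges over all alternatives of 0.0516 to 0.522 and 0.0519 to 0.5. The replicate numbers were not taken to pair the libraries: same-numbered libraries correlated at 0.05, -0.16 and -0.03 in their deviations from the group means. The share of members within 50 kb of a developmental TSS (26.2%) was 18.4% when members had to lie more than 5000 bp from a coding TSS and 23.4% to 27.3% in the other settings, all of them chosen after seeing the data. An alternative for annotations that merge noncoding gene types was not run, since GENCODE M21 separates them. A member at the low pileups of the shallowest library may go uncalled, so absence of a peak is not absence of the mark.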
